A study of Mus musculus with 2 samples.

Results

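The miR-99/100 and miR-125 genes, which lie with let-7 genes in 3 clusters of the mouse genome, and the let-7e gene were taken as 1 set of 7 gene rows of the deposited tables, out of 1973. The set was chosen by name. It holds Mir99a, Mir99b, Mir100, Mir125a, Mir125b-1 and Mir125b-2, read on their own strand, and Gm25927, whose opposite-strand column holds the reads of the overlapping Mirlet7e. The tables come from microRNA-seq of lung tissue of newborn B6NCrl mice, a C57BL/6N substrain, with a size range under 30 bases. There is 1 group of 2 libraries, named by replicate number, each from the 2 lungs of 1 pup on postnatal day 0. Replicate 1 is from pup 1 and replicate 2 from pup 3. The pups shared a pregnancy, and their labels name 1 donor record for both. The sex was not collected, and no treatment, genotype or second tissue was given.

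MicroRNAs are short RNAs cut from a hairpin precursor, and bases 2 to 8 of the mature strand, the seed, pair with target messenger RNAs. The miR-99/100, let-7 and miR-125 families sit side by side in animals as distant as flies and mammals. miR-125 is the counterpart of the lin-4 RNA of Caenorhabditis elegans, which with let-7 times larval development in that worm. In mammals let-7 and miR-125 accumulate as tissues mature and repress the growth gene Lin28, and miR-99 and miR-100 repress Mtor and Igf1r.

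The mature sequences show how the genes are related and which reads the tables can assign. They are from RefSeq on GRCm38.p6, written 5′ to 3′ with the seed in capitals. The first 3 share the miR-99/100 seed, the next 2 the miR-125 seed, and the last is let-7e.
miR-99a-5p: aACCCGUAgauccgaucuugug
miR-100-5p: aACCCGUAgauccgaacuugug
miR-99b-5p: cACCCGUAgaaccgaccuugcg
miR-125b-5p: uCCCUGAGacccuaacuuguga
miR-125a-5p: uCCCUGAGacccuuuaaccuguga
let-7e-5p: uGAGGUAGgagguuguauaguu

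miR-99a-5p and miR-100-5p differ by the single substitution U16A, counted from 1 at the 5′ end with the base of miR-99a first. miR-99b-5p differs from miR-99a-5p at 4 positions, A1C, U11A, U16C and U21C, all outside the seed. miR-125a-5p has 24 bases against 22 in miR-125b-5p and is 3 single-base edits away from it. No 20-base stretch of the precursors of Mir99a, Mir99b, Mir100, Mir125a or Mirlet7e was found in another annotated miRNA gene.

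Mir125b-1 and Mir125b-2 are the exception, since both encode the same miR-125b-5p. In the GENCODE M21 transcripts a 24-base stretch that contains the whole mature strand is common to both precursors.

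Reads with several genomic positions have a total of their own in the tables, 2860715 in replicate 1 and 3812820 in replicate 2, and the gene rows were taken to hold the others. A read of miR-125b-5p that spans no base outside that stretch has both places. The rows of Mir125b-1 and Mir125b-2 can therefore hold only a part of the miR-125b reads, and that part is not known. The tables do not separate the arms of a precursor.

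The 7 genes lie in 3 clusters. On the plus strand each has a miR-99/100 gene first, a let-7 gene next and a miR-125 gene last. Mirlet7c-1 and Mirlet7a-2, the let-7 genes on chromosomes 16 and 9, are not among the 7. Positions are from GENCODE M21, on GRCm38, which is the assembly that the files call mm10. On chromosome 16, Mir99a (ENSMUSG00000065530.1) spans 77598936 to 77599000 and Mir125b-2 (ENSMUSG00000065472.1) 77646273 to 77646343, both within introns of the non-coding host gene Mir99ahg. Mir125b-2 also overlaps an exon of C130023A14Rik. On chromosome 9, Mir100 (ENSMUSG00000093011.1) spans 41531425 to 41531504 and Mir125b-1 (ENSMUSG00000093354.1) 41581926 to 41582002, within introns of the non-coding genes 3110039I08Rik and Gm49317. Mir125b-1 also overlaps an exon of Gm28119, and an exon of the antisense Gm48742 overlaps Mir100. The third cluster is the most compact, with 624 bases between the starts of Mir99b and Mir125a, against 47337 between those of Mir99a and Mir125b-2 and 50501 between those of Mir100 and Mir125b-1. On chromosome 17, Mir99b (ENSMUSG00000065396.1) spans 17830188 to 17830257 within an intron of the protein-coding gene Spaca6. Mir125a (ENSMUSG00000065479.1) spans 17830812 to 17830879 and overlaps a Spaca6 exon. Between them Mirlet7e spans 17830352 to 17830444, and Gm25927 (ENSMUSG00000092799.1) spans 17830343 to 17830459 on the minus strand.

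Levels are own-strand reads per 1000000 of the own-strand reads on miRNA genes (CPM), which numbered 4532902 in replicate 1 and 5426081 in replicate 2. They compare reads between genes of near-equal mature length, not molecules, and how strongly each sequence was captured was not tested. Intervals cover counting error only. The 7 lung epithelial, 3 endothelial and 4 smooth muscle and mesenchymal marker miRNAs looked up to check the lung label all had at least 10 reads in each library. Their summed levels were 52701 and 52401 CPM, 161377 and 161345 CPM, and 71760.0 and 75586 CPM in replicates 1 and 2. The 3 leukocyte markers summed to 3109.7 and 2648 CPM and the 2 erythroid markers to 1292 and 1131 CPM. The 7 measured markers of liver, heart, skeletal muscle, brain and pancreas summed to 455 and 499 CPM. Of these 7, 4 had at least 10 reads in each library. Among them the heart marker Mir208a had a mean of 114 CPM, and Mir9-2 and Mir124a-1 were at 0. In whole lung, more cells of a type and more RNA per cell cannot be told apart, and the part of any cell type in the levels below was not tested.

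All 7 genes were read in both pups, and Mir99a, the gene of miR-99a, was far above the rest. It had 146313 reads (32278 CPM) in replicate 1 and 167843 reads (30933 CPM) in replicate 2, the 7th highest of the 1973 rows in each library. Mir99b, its counterpart on chromosome 17, had 48622 reads (10726 CPM) and 49686 reads (9157 CPM). Mir100, whose mature strand is 1 base from that of Mir99a, had only 3626 reads (799.9 CPM) and 5037 reads (928 CPM). The ranges of the 3 genes over the pups did not overlap.

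**Figure D1:**
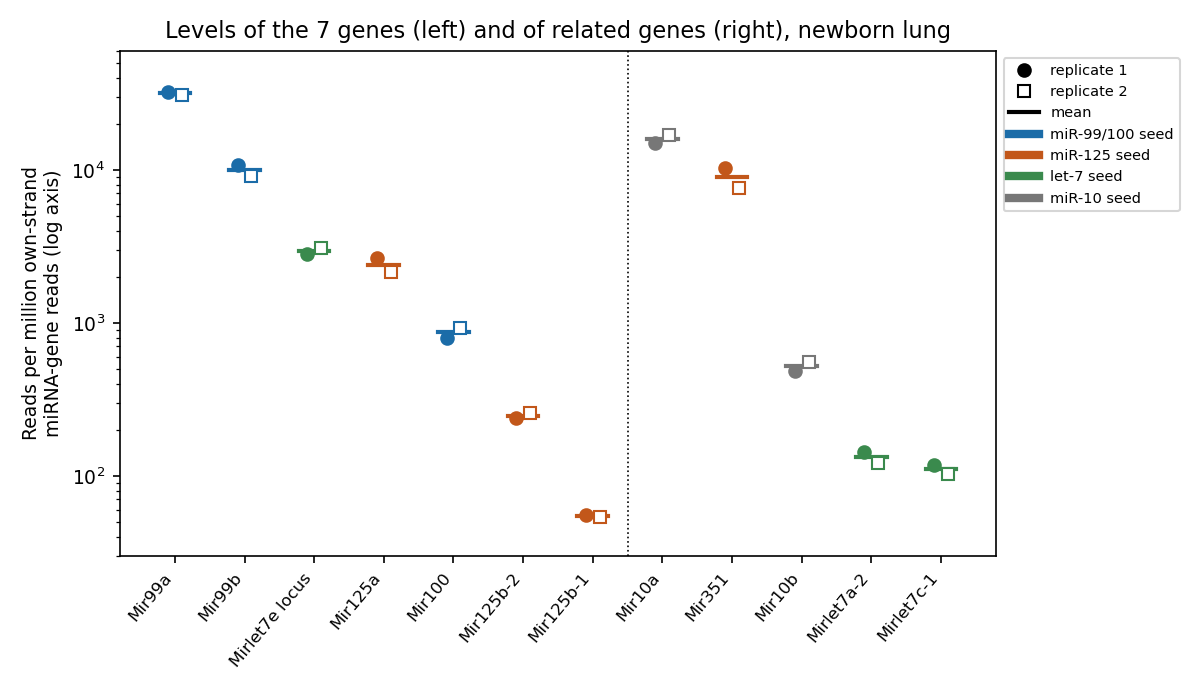
Reads per 1000000 own-strand miRNA-gene reads (log axis) for the 7 genes, left of the dotted line in falling order, and for 5 related genes on the right. Filled circles are replicate 1, open squares replicate 2, lines the mean of both, and colours the seed family; Mir99a stands at 31605 CPM and Mir125b-1 at 54.7 CPM.

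Means over the pups were 31605 ± 951 CPM for Mir99a, 9942 ± 1109.9 CPM for Mir99b and 864 ± 90.8 CPM for Mir100 (SD, n = 2). The log2 ratio of Mir99a to Mir99b was 1.67 ± 0.12, or 3.01-fold in replicate 1 and 3.38-fold in replicate 2. That of Mir99a to Mir100 was 5.20 ± 0.20, or 40.4-fold and 33.3-fold. In both pups Mir99a held most of the reads of the 3 genes, with a share higher in replicate 2 by more than counting error. That share was 73.7% (exact Clopper-Pearson 95% interval 73.5% to 73.9%) in replicate 1 and 75.4% (75.2% to 75.6%) in replicate 2. Mir100 held 1.83% (1.77% to 1.89%) and 2.26% (2.20% to 2.33%). How many mismatches the alignment allowed between a read and the genome is not given in the sources used here, and it bears on the split between Mir99a and Mir100.

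Among the miR-125 genes, Mir125a lay below Mir99b and above Mir100 in both pups, and the miR-125b genes lay below Mir100. Mir125a, the only annotated miRNA gene that encodes miR-125a-5p, had 11953 reads (2637 CPM) in replicate 1 and 11593 reads (2137 CPM) in replicate 2. Its mean was 2387 ± 354 CPM (SD, n = 2). Mir125b-2 had 1082 reads (239 CPM) and 1387 reads (256 CPM), with an SD of 11.96 CPM around a mean of 247 CPM. Mir125b-1 had 253 reads (55.8 CPM) and 291 reads (53.6 CPM), a mean of 54.7 ± 1.54 CPM. Among reads that could be placed, the chromosome 16 copy stood at a log2 ratio of 2.17 ± 0.11 to the chromosome 9 copy, or 4.28-fold and 4.77-fold in the pups. Mir125a held 89.95% of the reads counted on the 3 genes in replicate 1 (89.4% to 90.5%) and 87.4% in replicate 2 (86.8% to 87.9%). Neither that share nor the order of Mir125a and the miR-125b genes can be carried over to the mature miRNAs, because the shared miR-125b-5p reads are in no row.

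The let-7e locus was read only through its antisense row. Gm25927 is annotated as a miRNA gene on the minus strand, and its own-strand count was 0 in both libraries. Its opposite strand held 12709 reads (2804 CPM) in replicate 1 and 16826 reads (3101 CPM) in replicate 2, a mean of 2952 ± 210.2 CPM (SD, n = 2). All reads of the row were thus on the opposite strand, with lower exact 95% limits of 99.97% and 99.98%. The precursor of Mirlet7e lies whole within the row, at bases 10 to 102 of 117 on the opposite strand, and Mirlet7e has no row of its own. It reads as follows, in DNA letters from the GENCODE M21 transcripts with the let-7e-5p and let-7e-3p strands in capitals.
Mirlet7e: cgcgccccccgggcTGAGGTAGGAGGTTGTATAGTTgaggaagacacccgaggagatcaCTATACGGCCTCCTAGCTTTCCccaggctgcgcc

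A reading of the own-strand column alone would list the let-7e locus at 0. On the opposite strand it had the 3rd most reads of all rows in each library, with 15.2% and 15.5% of the opposite-strand reads in replicates 1 and 2. Rows of this kind were few. Of 319 rows with at least 10 reads on either strand in each library, 10 had more reads on the opposite than on the own strand in both. The 6 other genes of the set had 0 opposite-strand reads in both libraries. For Mir99a that allows a share of up to 0.00252% in replicate 1 and 0.00220% in replicate 2 at the exact 95% limit.

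**Figure D2:**
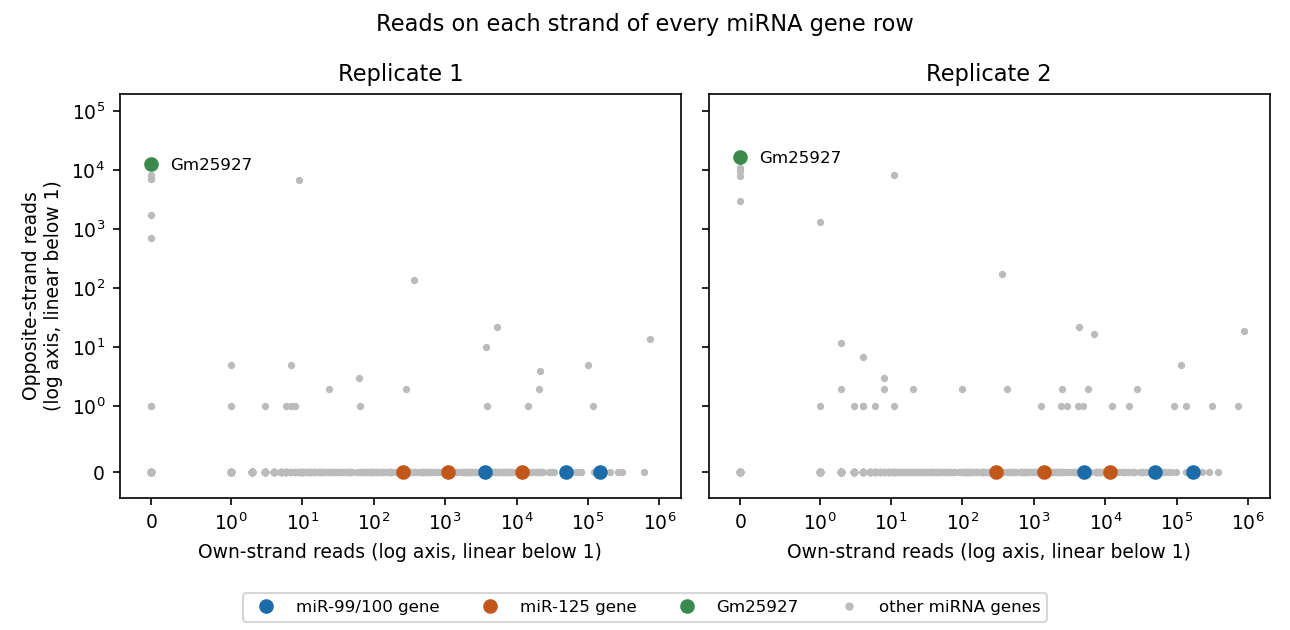
Own-strand reads (x) and opposite-strand reads (y) of every row with a read in either library, for replicate 1 (left) and replicate 2 (right). Both axes are log scaled and linear below 1. Gm25927 sits at 0 own-strand reads with 12709 and 16826 opposite-strand reads, and the 6 other coloured genes lie at 0 opposite-strand reads.

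In falling order of level the set ran Mir99a, Mir99b, the let-7e locus, Mir125a, Mir100, Mir125b-2 and Mir125b-1. The order was the same in both pups, and no range over the pups overlapped that of the next gene. The closest neighbours were the let-7e locus and Mir125a. The let-7e locus exceeded Mir125a by a log2 ratio of only 0.09 in replicate 1 and 0.54 in replicate 2, a mean of 0.31 ± 0.32 that is no larger than its SD. The other neighbours were 1.46 to 2.17 apart on the log2 scale, with SDs of 0.082 to 0.37. With 2 libraries the smallest two-sided p of an exact sign-flip test is 0.5, so no p is given for ratios between genes.

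The 6 own-strand genes together took 4.67% of the own-strand reads in replicate 1 and 4.35% in replicate 2, a mean of 4.51% ± 0.231 (SD, n = 2). With the let-7e reads added, the summed level was 49539.6 and 46565 CPM, of which Mir99a made up 65.2% and 66.4%. Of all 1973 rows, 308, or 15.6%, had at least 10 own-strand reads in each library, with a median level of 142 CPM in replicate 1 and 141 CPM in replicate 2. Mir125b-1 lay below that median in both libraries and the others above it. The rows nearest in mean level over the 2 libraries were Mir26b (37674 CPM) above and Mirlet7i (29478 CPM) below Mir99a, Mir22 and Mir200c around Mir99b, Mir541 and Mir93 around the let-7e locus, and Mir182 and Mir20a around Mir125a. Around Mir100, Mir125b-2 and Mir125b-1 they were Mir1193 and Mir337, Mir328 and Mir494, and Mir377 and Mir33. They are alike in mean level only, over 2 libraries.

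The clusters were then compared as units. The genes of a cluster are thought to be cut from a shared primary transcript, and in each of the 3 the miR-99/100 gene had more counted reads than its partners. The log2 ratio of Mir99a to Mir125b-2 was 7.08 in replicate 1 and 6.92 in replicate 2, a mean of 7.00 ± 0.11 (SD, n = 2) or a ratio of 128. Mir100 exceeded Mir125b-1 by 3.84 and 4.11, a mean of 3.98 ± 0.19 or a ratio of 15.8. Both differences can be too large, since the reads of miR-125b-5p shared by the copies are uncounted.

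**Figure D3:**
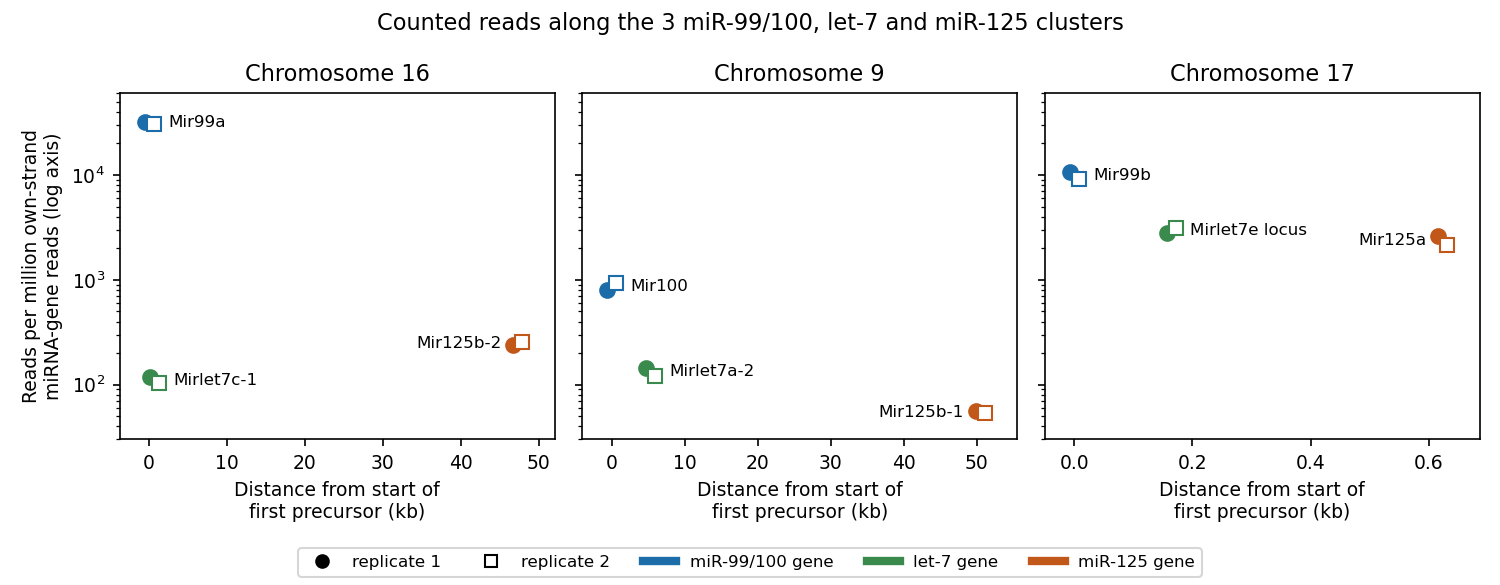
Level in reads per 1000000 own-strand miRNA-gene reads (log axis) against the distance of each precursor's start from that of the first precursor (kb), for the clusters on chromosomes 16, 9 and 17; circles are replicate 1 and squares replicate 2, set slightly apart. The miR-99/100 gene is the highest in each cluster, and the 3 genes on chromosome 17 lie closest in level.

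The chromosome 17 cluster is free of that limit among annotated miRNA genes, as none of its precursors shares a 20-base stretch with another. There Mir99b exceeded Mir125a by 2.02 in replicate 1 and 2.10 in replicate 2 on the log2 scale, a mean of 2.06 ± 0.053 (SD, n = 2) or a ratio of 4.18. The let-7e locus lay below Mir99b by a log2 ratio of -1.94 and -1.56, a mean of -1.75 ± 0.26. Mir99b thus held 66.3% of the cluster's reads in replicate 1 and 63.6% in replicate 2, the let-7e locus 17.3% (exact 95% interval 17.1% to 17.6%) and 21.5% (21.3% to 21.8%), and Mir125a 16.3% and 14.8%. The ratio of Mir99b to Mir125a was close in the pups, and the let-7e share was higher in replicate 2 by more than counting error.

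The let-7 genes of the other clusters had few countable reads. Mirlet7c-1, 721 bases from Mir99a, had 533 reads (118 CPM) in replicate 1 and 561 reads (103 CPM) in replicate 2, at a log2 ratio of -8.16 ± 0.088 to Mir99a (SD, n = 2). Mirlet7a-2, 5291 bases from Mir100, had 650 reads (143 CPM) and 659 reads (121 CPM), at -2.71 ± 0.32 to Mir100. The mature strand of Mirlet7c-1 is also encoded by Mirlet7c-2, and let-7a-5p by Mirlet7a-1. These rows, unlike that of let-7e, therefore leave out reads that have both places. let-7e-5p differs from let-7a-5p by 1 substitution, G9U, and from let-7c-5p by G9U and A19G.

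Summed over its counted genes, the chromosome 16 cluster had 32634 and 31292 CPM in replicates 1 and 2, the chromosome 17 cluster 16167 and 14394 CPM, and the chromosome 9 cluster 999 and 1103 CPM. The chromosome 16 cluster exceeded the chromosome 17 cluster by 1.07 ± 0.076 on the log2 scale, and the chromosome 17 cluster exceeded the chromosome 9 cluster by 3.86 ± 0.22 (SD, n = 2). Mir99a made up 98.9% of the chromosome 16 total in both pups and Mir100 made up 80.1% and 84.1% of the chromosome 9 total. The chromosome 16 and 9 totals leave out the let-7c-5p, let-7a-5p and miR-125b-5p reads with several positions. They can therefore be too low against chromosome 17, and the shares of Mir99a and Mir100 in them can be too large. How far was not tested.

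Between seed families, the miR-99/100 genes together had 43804 CPM in the first replicate and 41018 CPM in the second, and the miR-125 genes 2931 and 2446 CPM. The log2 ratio was 3.98 ± 0.12 (SD, n = 2), or 4.16 ± 0.15 without the miR-125b genes. The reads with several positions, 2860715 and 3812820, far exceed the 198561 and 222566 reads counted on the miR-99/100 genes, and how many of them are miR-125b was not tested. The order of the families as mature miRNAs is therefore not given by these tables.

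A gene outside the clusters, Mir351, also carries the miR-125 seed, and its sequence is shown with that of Mir10a, whose product is 3 single-base edits from miR-100-5p but has another seed. Mir351 lies on the X chromosome and Mir10a on chromosome 11, within the HoxB region.
miR-351-5p: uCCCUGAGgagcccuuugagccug
miR-10a-5p: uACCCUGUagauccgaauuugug

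Beside the 3 miR-125 genes at 2931 and 2446 CPM, Mir351 had 10317 CPM in replicate 1 and 7638 CPM in replicate 2. It exceeded Mir125a by 1.90 ± 0.092 on the log2 scale (SD, n = 2). Of the reads counted on the 4 genes, Mir125a thus held 19.9% and 21.2% and Mir351 77.9% and 75.7%. Another 2 genes with that seed, Mir6367 and Mir6394, had 0 reads in both libraries. With Mir351 included, the miR-99/100 genes exceeded the counted genes with the miR-125 seed by 1.87 ± 0.21. The miR-125b-5p reads with several positions are in none of these counts. That difference and the shares of Mir125a and Mir351 can therefore be too large. The miR-99/100 genes were also higher, by 1.37 ± 0.18, than the miR-10 genes Mir10a and Mir10b, which summed to 15533 and 17371 CPM. The let-7e locus, at 2804 and 3101 CPM, was a small part beside the 10 listed let-7 and miR-98 genes with a row. Those 10, which are not every let-7 row, summed to 100643 and 109623 CPM. That sum leaves out the let-7a-5p, let-7c-5p and let-7f-5p reads with several positions.

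**Figure D4:**
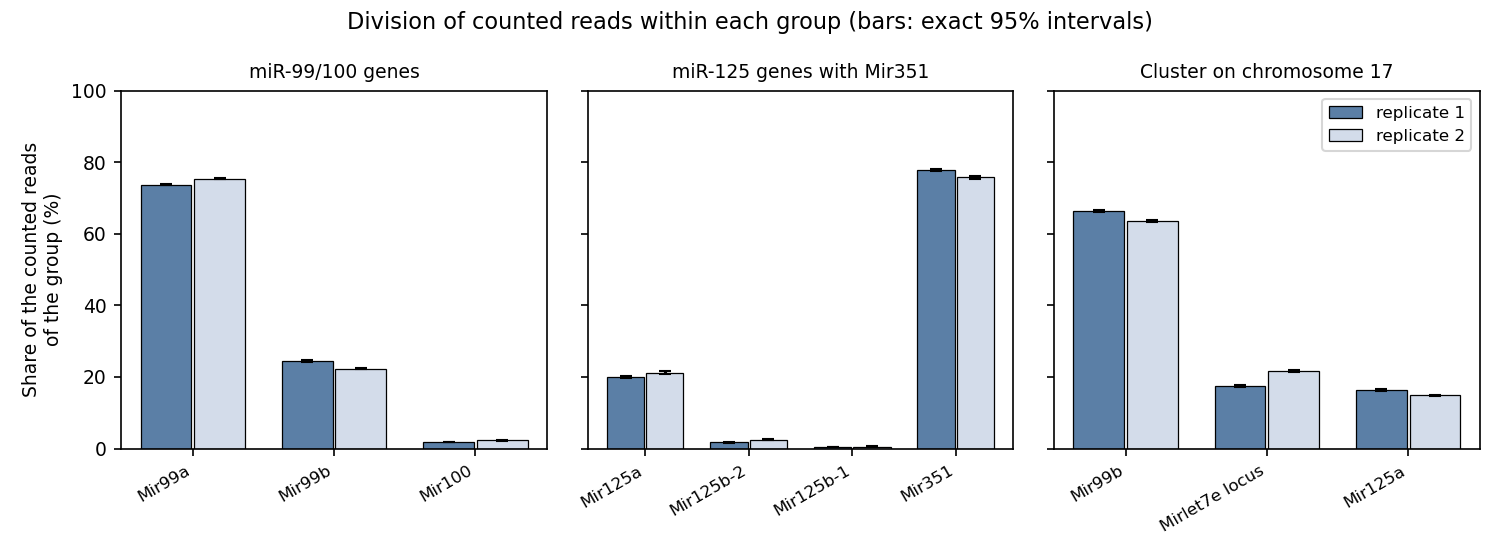
Share (%) of the counted reads of each group held by each gene, for the 3 miR-99/100 genes (left), the miR-125 genes with Mir351 (middle) and the chromosome 17 cluster (right). Dark bars are replicate 1 and pale bars replicate 2, with exact 95% intervals; Mir99a holds 73.7% and 75.4% on the left, and the let-7e locus 17.3% and 21.5% on the right.

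The pups were compared last, by a two-sided exact binomial test of how each gene's reads split between the libraries, given their totals. The p-values were adjusted by Benjamini-Hochberg over the 375 rows that reached 10 reads in both libraries combined. The test sets 2 libraries of 1 group against each other and covers counting error only. Of the 6 own-strand genes 4 passed at an adjusted p of 0.05, against 42.4% of all rows tested. Of these, 1 was higher in replicate 2, against 19.2% of all rows, and 3 were lower, against 23.2%. The median log2 ratio of the 6 genes was -0.06, and that of all rows tested was -0.03.

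Mir100 was the gene that was higher in replicate 2, at a log2 ratio to replicate 1 of 0.21 (exact 95% interval 0.15 to 0.28; adjusted p 4.17e-11, exact binomial test). Mir99b (-0.23, -0.25 to -0.21; adjusted p 6.24e-134) and Mir125a (-0.30, -0.34 to -0.27; adjusted p 1.81e-57) were lower by the same exact test. These 2 neighbours on chromosome 17 were thus both lower in replicate 2. The let-7e reads between them were not. In the fit of either-strand reads, where 42.9% of 385 rows passed, Gm25927 was among the 20.3% that were higher in replicate 2 and not the 22.6% that were lower, at 0.14 (0.11 to 0.18; adjusted p 1.69e-16, exact).

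Mir99a stood at -0.06 (-0.07 to -0.05; adjusted p 1.12e-31, exact binomial test). That call rests on scaling by library totals, since the ratio was 0.01 with the TMM factors of edgeR (adjusted p 0.213) and -0.01 with the size factors of DESeq2 (adjusted p 0.231). Mir125b-2 stood at 0.10 (-0.02 to 0.21; adjusted p 0.186, exact) and passed with both of those scalings, at 0.17 (adjusted p 0.0114) and 0.15 (adjusted p 0.0236). Mir125b-1 stood at -0.06 (-0.31 to 0.19; adjusted p 0.809, exact), and at this depth a difference of that size was not detectable; with the TMM factors it was 0.01. Of the 7 genes, Mir125a had the ratio between the pups farthest from 0, at -0.30 on the log2 scale, while over the 233 genes averaging 100 reads or more that ratio had an SD of 0.26.

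**Figure D5:**
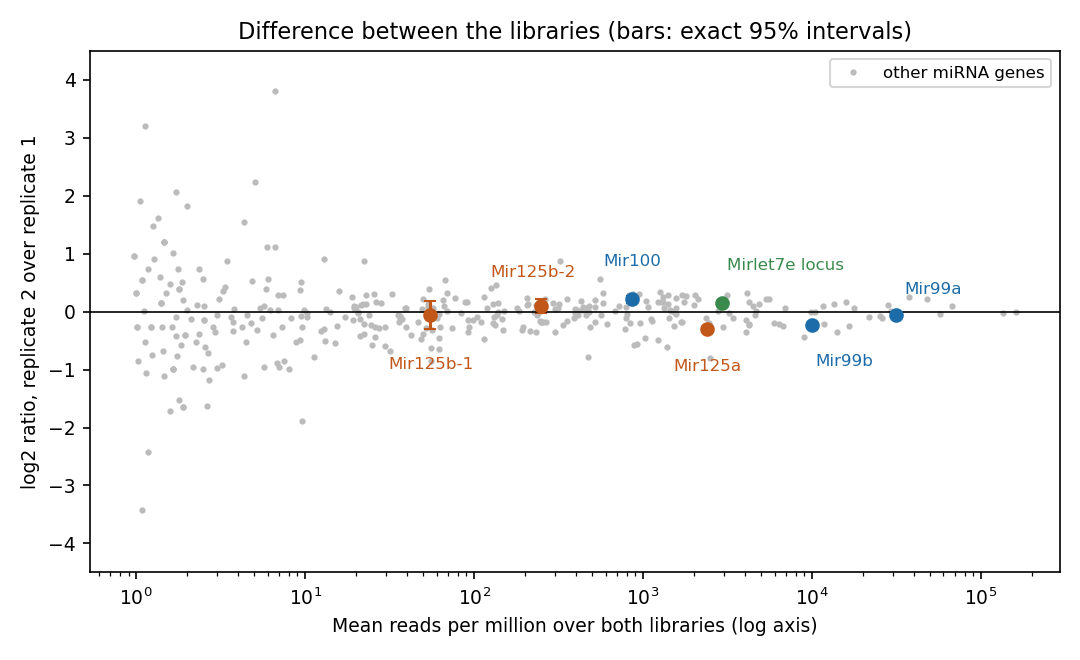
The log2 ratio of replicate 2 to replicate 1 (y) against the mean reads per 1000000 over both libraries (x, log axis), for rows that reached 10 reads in both libraries combined and had a read in each. Grey points are miRNA genes and coloured points the 7 genes with exact 95% intervals, from -0.30 for Mir125a to 0.21 for Mir100; the let-7e locus is from the fit of either-strand reads.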

How the data were processed

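Small RNA from lungs of 2 newborn pups was sequenced as microRNA-seq. For each library the authors deposited raw counts of reads, unscaled, by miRNA gene; build mm10 and annotation M4 are per the deposited file descriptions. For the aligner and counting program, nothing was given in the sources used here. The counts come in 3 columns, and in each gene row the first adds up the other two. These were read as own and opposite strand, which no header states. Rows that name no gene were left out of totals; reads with several positions were 34.6% and 36.7% of all reads in replicates 1 and 2. Levels were computed here as own-strand reads per 1000000. A chi-square of 75.2 per degree (374 degrees of freedom) put the libraries further apart than sampling noise. They count as 2 replicates. The p-values cover counting error only and do not measure the spread between pups.

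Identifiers without version were matched to GENCODE M21 (1894 of 1973). All 7 genes matched. The version of Mir125a differs between M4 and M21. The miR-125b precursor sequences are not reported here. Stretches of 20 bases were searched among annotated miRNA precursors only, since no genome was used here. SciPy 1.17.1 gave exact binomial tests and Clopper-Pearson intervals of 95%. The tests, not the intervals, were run on simulated counts that held counting error only. edgeR 4.0.16 and DESeq2 1.42.0 gave the alternative scalings. Mature sequences were found for all genes except Gm25927, for which those of Mirlet7e were used. The members and lists were chosen with earlier results of these data known. Named were the 7 genes, related let-7, miR-10 and miR-125-seed genes, and the rows next to each gene in mean level. Mir6367 and Mir6394 were added after their values were seen.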

Additional observations from a re-analysis of the deposited data

How the results depend on the processing

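The 25 results had 115 alternative values. Of these, 34 left out 1 of the 2 replicates, which cannot move a mean by more than 1 SD, and 7 ratios on either-strand reads equal the reported ones by construction, so neither shows stability. Of the other 74, 59 kept their direction and side of the threshold or, where untested, lay within 1 SD (counts within 1.5 times). Many of the 59 could hardly have changed either. Library factors such as those of TMM, 1.02 and 0.98, nearly cancel in a mean over 2 libraries. Own-strand reads were 98.2% and 98.0% of either-strand reads in replicates 1 and 2. Dropping the filter on low counts leaves each log2 ratio as it was. The 59 are therefore not a measure of stability. Relative to all reads of the tables in place of own-strand miRNA-gene reads, the summed level of the 7 genes was 25722 CPM and that of the 6 own-strand genes 24145 CPM, and all 7 single levels were lower. Without the miR-125b genes the log2 ratio of miR-99/100 to miR-125 genes was 4.16. Between the pups the ratio of Mir99a changed sign with the TMM factors of edgeR, to 0.0080 (0.01 after rounding), and that of Mir125b-1 to 0.012. Mir99a lost its call and Mir125b-2 gained one with both other scalings. Outside the 25 results, the ratio of Mirlet7f-2 also changed sign with TMM, to 0.015. TMM shifted every log2 ratio by 0.069 and the DESeq2 size factors by 0.054. The count of genes that differed was 159, and 147 to 165 under the alternatives. Leaving out 1 replicate gave the other replicate's values, as stated. No paired analysis was possible because there is 1 group. Depth limits Mir125b-1 most, with 253 and 291 reads. The uncounted reads with several positions limit all miR-125b, let-7a, let-7c and let-7f values.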

Other observations

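The other let-7 and miR-98 genes of the related list, which does not hold every let-7 row, were compared between the pups on own-strand reads. Of the 10 listed genes with a row, 8 passed the exact binomial test with Benjamini-Hochberg adjustment, against 42.4% of all rows tested. Of the 10, 4 were higher in replicate 2, against 19.2% of all rows, and 4 were lower, against 23.2%. Higher in replicate 2 were Mirlet7g (log2 ratio 0.21), Mir98 (0.17), Mirlet7d (0.14) and Mirlet7b (0.13). The let-7e locus, at 0.14, was tested on either-strand reads, and in that fit the same 8 genes passed in the same directions. Lower were Mirlet7c-2 (-0.35), Mirlet7a-1 (-0.34), Mirlet7a-2 (-0.24) and Mirlet7f-2 (-0.05). Each of the 4 that were lower shares a run of 20 bases with some other miRNA gene, as does Mirlet7c-1, which did not pass at -0.19, and none of the 4 that were higher does. Mirlet7i, without such a stretch, stood at 0.01 and did not pass. This split was chosen after the values were seen. Reads with several positions made up 34.6% of all reads in replicate 1 and 36.7% in replicate 2, and their part in the split was not tested. The split depends on scaling. With the TMM factors of edgeR 5 genes were higher and 2 lower. With the size factors of DESeq2 5 were higher and 3 lower. Both alternatives were chosen after seeing the data. They raised the log2 ratio of every row, by 0.069 with TMM and 0.054 with DESeq2. Of all 375 rows tested, 162 passed with TMM and 159 with DESeq2, in either direction. The shares of all rows by direction were not computed with these scalings. Mirlet7i passed with both, at 0.08 (adjusted p 4.26e-45, exact binomial test) and 0.06 (adjusted p 1.1e-28). Mirlet7f-2 did not pass with either, at 0.02 (adjusted p 0.401) and -0.00050 (adjusted p 1), nor did Mirlet7a-2 with TMM, at -0.17 (adjusted p 0.0727).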
